A study of Mus musculus with 12 samples.

Results

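The growth hormone axis of the liver was followed through 10 genes, chosen by name from the deposited table: the receptor gene *Ghr*, the transducers *Stat5a* and *Stat5b*, the feedback inhibitors *Socs2* and *Cish*, the secreted products *Igf1* and *Igfals*, and the liver transcription factors *Bcl6*, *Cux2* and *Onecut1*. They are 10 of the 24532 genes listed, and all 10 were among the 14038 genes with enough reads to be tested. RNA-seq was run on 12 livers of male C57BL/6 mice in 4 groups of 3, which were WT or *Ahr* HKO mice on a control (con) or ethanol (EtOH) diet. *Ahr* HKO mice carried *Ahr* fl/fl alleles and the *Alb-Cre* transgene, in which the albumin promoter drives Cre in hepatocytes. WT mice were *Ahr* fl/fl littermates without Cre, so every group carried the floxed alleles. Feeding began at 10 to 12 weeks of age and lasted 5 weeks, with the Lieber-DeCarli liquid diet (ethanol at 5% of the volume and 36% of the calories) or its isocaloric control. The 3 livers of a group were drawn at random from a larger set of mice.

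Growth hormone binds GHR on hepatocytes, and the kinase JAK2 then phosphorylates STAT5 proteins, which enter the nucleus and switch on genes such as *Igf1*, *Igfals*, *Socs2* and *Cish*. SOCS2 and CISH in turn dampen the receptor, and BCL6 is a repressor that can occupy sites shared with STAT5. Growth hormone reaches the male mouse liver in pulses and the female liver almost continuously, and this difference in timing sets much of the sex bias of liver genes, with CUX2 a female-biased and BCL6 a male-biased factor and ONECUT1 (HNF6) a hepatocyte factor that responds to the hormone.

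Each library held between 46306518 and 74336255 reads assigned to genes. Levels are given in CPM, the usual counts scaled to a common library size, with TMM factors of all 12 libraries, and 3 livers stand behind each mean ± SD. Differences are log2 fold changes (log2 FC) with the SE of the edgeR coefficient. A gene was said to have passed, risen or fallen when the quasi-likelihood test of edgeR gave an adjusted *P* value under 0.05 (Benjamini-Hochberg) over all tested genes. The targeted gene *Ahr* (chr12:35497979-35534989, GRCm38) was read at 20.1, 16.6 and 18.3 CPM in WT control livers and at 65.5, 41.3 and 63.3 CPM in those labelled *Ahr* HKO, a rise of 1.63 ± 0.188 in log2 FC (edgeR adjusted *P* = 0.00164). The loxP sites flank exon 2 and the counts cover the whole gene, so these levels do not check the deletion. Genotypes are therefore those of the labels, here and in every direction given below. All 7 hepatocyte markers in the table were detected, with a summed level of 77938 CPM or more in every liver. RNA came from whole liver, where fewer cells of a type and less RNA per cell cannot be told apart. All 7 Kupffer cell markers fell with ethanol in *Ahr* HKO (edgeR), from a summed 295 to 841 CPM in control livers to 182 to 230.2 CPM, and none was at 0 in all libraries. In the same comparison 2 of 6 leukocyte, 2 of 6 endothelial, 1 of 7 stellate and 1 of 5 cholangiocyte markers fell, and 1 stellate and 1 of 7 hepatocyte markers rose. Of all tested genes 15.9% fell and 14.9% rose there. Ethanol in WT lowered 2 of 7 hepatocyte markers and raised 1 of 6 leukocyte and 2 of 7 stellate markers, against 9.47% of all tested genes. The genotype-by-diet interaction passed downward for 5 of 7 Kupffer cell, 3 of 6 leukocyte, 1 of 7 stellate, 1 of 6 endothelial and 1 of 5 cholangiocyte markers. It passed upward for 2 of 7 hepatocyte markers, and 22.3% of all tested genes passed it. The part of these markers in the results below was not tested.

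STAT5 dimers bind the palindrome TTCNNNGAA, and the aryl hydrocarbon receptor binds the core GCGTG. RefSeq promoters on GRCm38.p6 were matched by symbol for 9 of the 10 genes, with 16 start sites, and the 250 bases before each start were searched on both strands. No promoter was matched for *Socs2*, so it was not searched. Among the 9 genes searched, only *Bcl6* and *Igfals* held TTCNNNGAA, in 4 of the 16 windows. It was present in 7.02% of all 32851 promoter windows of this length. These matches are shown because no others were found in the windows searched. Capitals mark the palindrome. The upstream window of *Bcl6* (chr16:23988853-23989102, minus strand) lies within the non-coding RefSeq gene *Gm31527*, touches the first bases of the *Bcl6* gene at its end next to the start, and has 1 match, 118 bases before the start. The window before the downstream start (chr16:23981284-23981533, minus strand) lies within the *Bcl6* gene, outside exons annotated by GENCODE, and has 3 matches at 168, 122 and 88 bases before that start. A count of 3 or more was found in 0.0274% of all windows.
*Bcl6*, upstream start: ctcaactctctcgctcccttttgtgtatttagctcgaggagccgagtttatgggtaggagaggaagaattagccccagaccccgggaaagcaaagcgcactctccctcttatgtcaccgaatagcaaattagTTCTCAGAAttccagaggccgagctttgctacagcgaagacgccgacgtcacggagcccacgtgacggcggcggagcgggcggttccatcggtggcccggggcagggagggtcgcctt
*Bcl6*, downstream start: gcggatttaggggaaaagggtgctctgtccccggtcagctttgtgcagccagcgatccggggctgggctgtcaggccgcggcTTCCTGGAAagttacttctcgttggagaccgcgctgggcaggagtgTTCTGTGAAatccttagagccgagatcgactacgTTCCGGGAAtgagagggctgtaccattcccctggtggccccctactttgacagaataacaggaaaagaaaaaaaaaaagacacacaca
The *Igfals* matches are shown with 10 bases on each side (chr17:24877598-24877626 and chr17:24878163-24878191, plus strand), 236 and 58 bases before the first and the second of its 3 start sites. The first of these stretches lies within the non-coding RefSeq gene *Gm41549*, and the second within the RefSeq *Igfals* gene itself. Both 250-base windows overlap an *Igfals* exon annotated by GENCODE.
*Igfals*, first start: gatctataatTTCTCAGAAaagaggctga
*Igfals*, second start: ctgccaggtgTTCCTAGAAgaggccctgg
The core GCGTG was found before *Ghr* (1 and 3 matches at its start sites), *Igf1*, *Stat5b* and *Onecut1*, in 5 of the 16 windows (31.2%), near the 28.2% of all windows. Such matches are letters in a window and do not show binding. Bases outside the windows were not searched, so a window without a match does not show that a gene lacks STAT5 sites.

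*Ghr* (chr15:3317755-3583352) encodes the growth hormone receptor. Its level was 432, 319 and 303 CPM in WT control, 292, 157 and 319.9 in WT ethanol, 217, 205 and 269 in *Ahr* HKO control and 377, 352 and 329 in *Ahr* HKO ethanol livers. The *Ahr* HKO control livers were all below the WT control livers and all below the *Ahr* HKO ethanol livers, and the ranges of the WT groups overlapped. On the control diet *Ghr* was lower in *Ahr* HKO than in WT (log2 FC -0.60 ± 0.178, edgeR adjusted *P* = 0.0397). Ethanol raised it in *Ahr* HKO (log2 FC 0.61 ± 0.145, edgeR adjusted *P* = 0.0192), whereas in WT the value was -0.45 ± 0.268 (edgeR adjusted *P* = 0.338). The diet responses of the genotypes differed by 1.07 ± 0.333 in log2 FC (edgeR interaction test, adjusted *P* = 0.0402). These *Ghr* calls were sensitive to single livers: the control-diet call held in 2 of 6 fits without 1 liver and was lost without WT control liver 1 or 2 or *Ahr* HKO control liver 1 or 2, and the *Ahr* HKO diet call was lost without *Ahr* HKO control liver 1 or ethanol liver 1 or 2. The interaction passed in 5 of 12 such fits and was lost without WT control liver 1 or 2, *Ahr* HKO control liver 1 or 2 or any *Ahr* HKO ethanol liver. For *Ghr* the ratio of CPM to FPKM, a value per gene length, ranged from 1.45 in WT ethanol liver 2 to 3.38 in WT control liver 2, a 2.33-fold spread against 1.28-fold to 1.58-fold for the other 9 genes. In a single fit of all 12 libraries neither the control-diet call (adjusted *P* = 0.0704) nor the *Ahr* HKO diet call (adjusted *P* = 0.0619) of *Ghr* passed in edgeR. On log2(FPKM + 1) the control-diet difference of *Ghr* was -0.32 and the interaction 0.52, and neither passed in limma.

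*Stat5a* (chr11:100859351-100885169) and *Stat5b* (chr11:100780731-100859004) are neighbours that encode the STAT5 proteins, of which STAT5B predominates in liver. Per gene length *Stat5b* was the more abundant, at 14.3 FPKM in WT control livers against 4.1 for *Stat5a*. *Stat5b* was read at 85.6, 77 and 66.4 CPM in WT control and at 50.3, 59.8 and 50.9 in *Ahr* HKO control livers. These ranges did not overlap, and *Stat5b* was lower in *Ahr* HKO by a log2 FC of -0.50 ± 0.126 (edgeR adjusted *P* = 0.0225). It was read at 67.6, 51.1 and 56.4 CPM in WT ethanol and 74.4, 42.8 and 57 in *Ahr* HKO ethanol livers, and no other comparison of *Stat5b* passed. The call on the control diet was lost without WT control liver 1 or 2 or *Ahr* HKO control liver 1 or 3, with log2 FC between -0.60 and -0.42 and adjusted *P* values up to 0.075, and in a single edgeR fit of 12 libraries (adjusted *P* = 0.0563). *Stat5a* lay between 9.83 and 19.6 CPM in all 12 livers and passed in no comparison. The genes are near-identical in part, and how shared reads were assigned is not given in the sources used here.

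The kinase gene *Jak2* ranged from 11.8 to 19.4 CPM and passed in no comparison. The plot of levels by liver shows the members together.

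**Figure D1:**
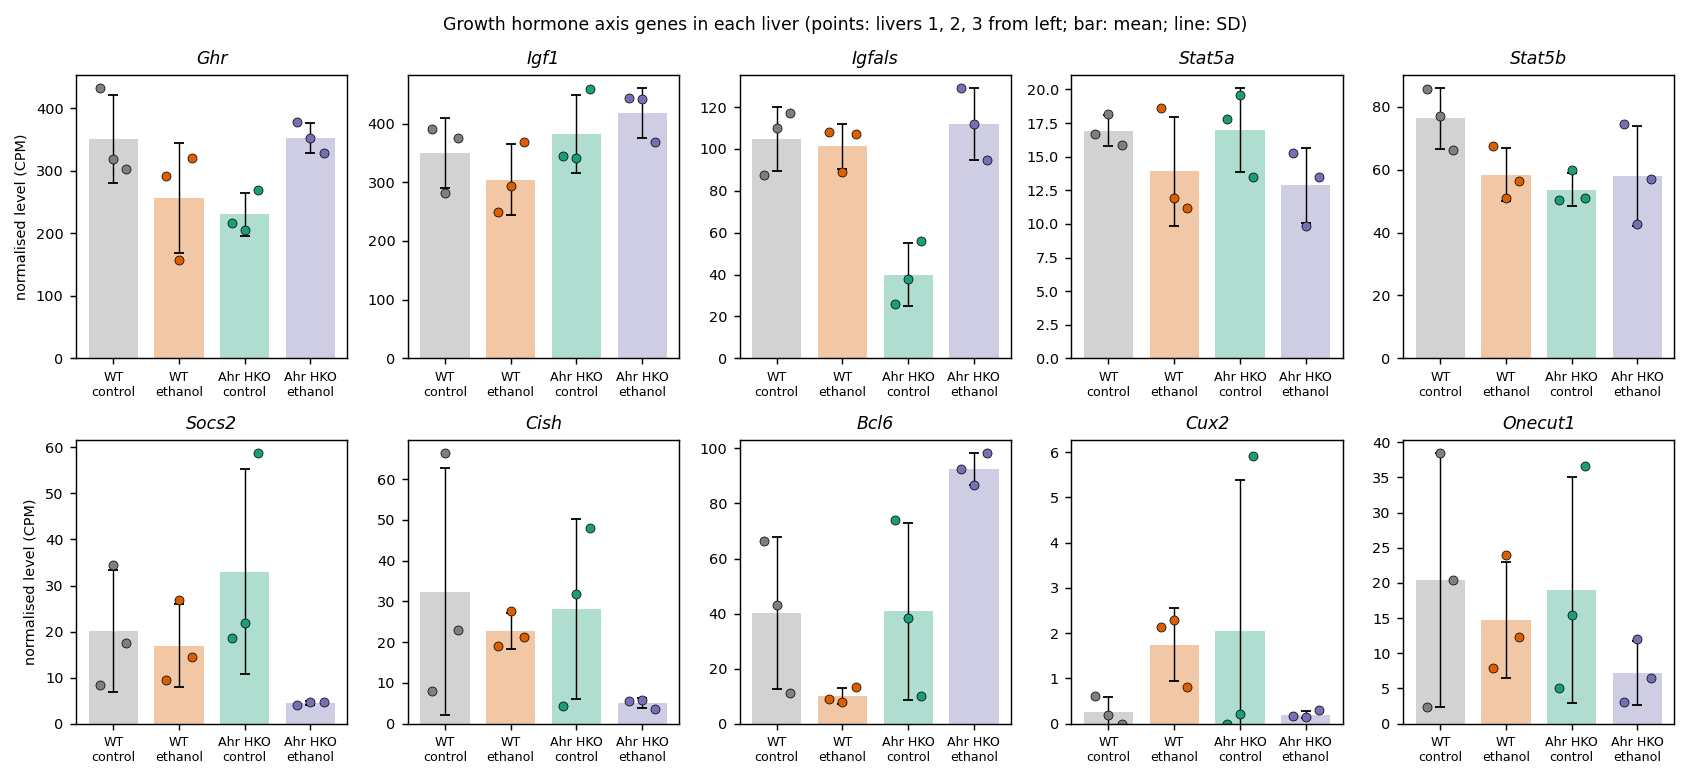
Levels of the 10 genes in CPM (vertical axes, linear, from 0, a scale for each gene) in the 4 groups of 3 livers. Points are livers 1, 2 and 3 from left, bars are means and lines are SD, cut off at 0. *Igfals* is lowest in the *Ahr* HKO control livers (25.9 to 56.2 CPM), *Bcl6* is highest in the *Ahr* HKO ethanol livers (86.7 to 98.2 CPM), and *Socs2*, *Cish*, *Bcl6* and *Onecut1* are widely spread in the control-diet groups.

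*Igf1* (chr10:87858265-87937047) encodes the circulating growth factor through which growth hormone acts on the body. Livers gave 391, 281 and 376 CPM in WT control, 249, 294 and 369 in WT ethanol, 345, 342 and 458 in *Ahr* HKO control and 443, 442 and 369 in *Ahr* HKO ethanol livers. *Igf1* passed in no comparison. The differences were -0.19 (95% interval -0.62 to 0.25) for ethanol in WT, 0.13 (-0.25 to 0.52) for ethanol in *Ahr* HKO and 0.13 (-0.29 to 0.55) for genotype on the control diet. In ethanol-fed mice *Igf1* was 0.46 higher in *Ahr* HKO (0.07 to 0.85), with ranges that met near 369 CPM without overlapping, and the edgeR adjusted *P* value was 0.181. The order of the mean levels was *Ahr* HKO ethanol, *Ahr* HKO control, WT control and WT ethanol, and each neighbouring pair overlapped.

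*Igfals* (chr17:24877844-24882011) encodes the acid-labile subunit, which holds IGF1 in a long-lived complex in blood. It was read at 87.7, 109.9 and 117 CPM in WT control, 108, 89 and 107 in WT ethanol, 25.9, 38 and 56.2 in *Ahr* HKO control and 129, 112 and 94.5 in *Ahr* HKO ethanol livers. The *Ahr* HKO control livers stood below every other liver. *Igfals* was 2.61-fold lower in *Ahr* HKO than in WT on the control diet (log2 FC -1.38 ± 0.274, edgeR adjusted *P* = 0.00993) and rose 2.79-fold with ethanol in *Ahr* HKO (log2 FC 1.48 ± 0.28, adjusted *P* = 0.00939). In WT the diet difference was -0.03 (95% interval -0.34 to 0.28), and the diet responses differed between genotypes by 1.52 ± 0.333 (edgeR interaction test, adjusted *P* = 0.00896). Ethanol-fed genotypes differed by 0.14 (-0.18 to 0.46). The called *Igfals* differences passed in every fit without 1 liver. While *Igfals* moved, *Igf1* did not pass in these comparisons.

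*Socs2* (chr10:95383903-95417321) encodes an inhibitor that dampens growth hormone receptor signalling. It was read at 8.34, 34.4 and 17.5 CPM in WT control, 9.44, 26.9 and 14.4 in WT ethanol, 18.6, 21.8 and 58.7 in *Ahr* HKO control and 4.01, 4.72 and 4.64 in *Ahr* HKO ethanol livers. The *Ahr* HKO ethanol livers were the lowest 3 of the 12. Ethanol lowered *Socs2* 7.43-fold in *Ahr* HKO (log2 FC -2.89 ± 0.454, edgeR adjusted *P* = 0.00536), and this passed in 6 of 6 fits without 1 liver, with a smaller log2 FC of -2.17 without *Ahr* HKO control liver 3. In WT the difference was -0.23 (95% interval -1.51 to 1.05), and the diet responses differed by -2.64 ± 0.785 (edgeR interaction test, adjusted *P* = 0.0335). The interaction was lost without WT control liver 1 or 3, WT ethanol liver 2, *Ahr* HKO control liver 3 or any *Ahr* HKO ethanol liver, and was -1.93 without *Ahr* HKO control liver 3 and -3.28 without WT control liver 2. Between the ethanol-fed genotypes the levels did not overlap, yet the log2 FC of -1.93 ± 0.372 did not pass in edgeR (adjusted *P* = 0.0638). It passed in DESeq2 (-1.94, adjusted *P* = 1.46e-05) and in limma on log2(FPKM + 0.1) (-1.96, adjusted *P* = 0.0483), and adjusted *P* values over all 7 alternatives ran up to 0.0793.

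*Cish* (chr9:107296659-107302784), an immediate STAT5 target, was read at 7.99, 66.3 and 22.9 CPM in WT control, 19.1, 27.6 and 21.2 in WT ethanol, 4.31, 31.9 and 48.1 in *Ahr* HKO control and 5.54, 5.83 and 3.63 in *Ahr* HKO ethanol livers. It was lower in the *Ahr* HKO ethanol livers than in every WT ethanol liver (log2 FC -2.17 ± 0.229, edgeR adjusted *P* = 0.0181), and this call was lost without *Ahr* HKO ethanol liver 3 (adjusted *P* = 0.0698) and in a single edgeR fit of 12 libraries (adjusted *P* = 0.13). Ethanol lowered *Cish* in *Ahr* HKO by a log2 FC of -2.48 ± 0.745 (edgeR adjusted *P* = 0.0422). That call was lost when any single liver other than *Ahr* HKO control liver 1 was left out, and that liver, at 4.31 CPM, lay within the range of the ethanol livers. The difference was 5.59-fold with all livers and a log2 FC of -1.83 without *Ahr* HKO control liver 3, and on log2(FPKM + 1) it was -1.61 and did not pass in limma (adjusted *P* = 0.111). The diet responses of *Cish* did not differ by the interaction test (log2 FC -1.96, adjusted *P* = 0.216 in edgeR).

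*Bcl6* (chr16:23965050-23988866) was read at 66.3, 43.3 and 11.1 CPM in WT control, 8.82, 7.7 and 13.2 in WT ethanol, 74.1, 38.3 and 9.9 in *Ahr* HKO control and 92.5, 86.7 and 98.2 in *Ahr* HKO ethanol livers. Ethanol-fed genotypes were far apart, 9.92 ± 2.93 against 92.5 ± 5.78 CPM, a 9.33-fold difference (log2 FC 3.22 ± 0.209, edgeR adjusted *P* = 0.00312) that passed in 6 of 6 fits without 1 liver. In WT the control livers spread from 11.1 to 66.3 CPM and overlapped the ethanol livers, and the 4.03-fold lower mean did not pass (log2 FC -2.01 ± 0.578, edgeR adjusted *P* = 0.0746). It passed without WT control liver 3 (log2 FC -2.46, edgeR adjusted *P* = 0.0139). In *Ahr* HKO all 3 ethanol livers were above all 3 control livers, with a log2 FC of 1.18 ± 0.59 (edgeR adjusted *P* = 0.165) that passed only without control liver 1 (1.95, adjusted *P* = 0.045). The diet responses differed by 3.20 ± 0.93 (edgeR interaction test, adjusted *P* = 0.0307), a call lost without WT control liver 1 or 2, WT ethanol liver 1 or 2, *Ahr* HKO control liver 2 or *Ahr* HKO ethanol liver 1 or 3. It was 3.97 without *Ahr* HKO control liver 1, and on log2(FPKM + 1) it was 2.38 and did not pass in limma (adjusted *P* = 0.0784).

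*Cux2* (chr5:121857962-122050415) was the least expressed of the 10, with 0 to 293 reads per library. It was read at 0.611, 0.196 and 0 CPM in WT control, 2.13, 2.29 and 0.812 in WT ethanol, 0, 0.222 and 5.91 in *Ahr* HKO control and 0.17, 0.139 and 0.293 in *Ahr* HKO ethanol livers. Every WT ethanol liver was above every WT control liver, with a log2 FC of 2.72 ± 0.966 that did not pass (edgeR adjusted *P* = 0.127). Between the ethanol-fed genotypes *Cux2* was 8.83-fold lower in *Ahr* HKO (log2 FC -3.14 ± 0.531, edgeR adjusted *P* = 0.0489), and of the 6 fits without 1 liver it passed only in that without WT ethanol liver 3. In a single edgeR fit of 12 libraries it did not pass (adjusted *P* = 0.238), nor in limma on log2(FPKM + 1) (adjusted *P* = 0.0728). *Ahr* HKO control liver 3 held 293 *Cux2* reads, against 0 and 13 in livers 1 and 2 of its group. Without it the difference between genotypes on the control diet changed from 2.94 to -1.26 and that between diets in *Ahr* HKO from -3.37 to 0.85, and none of these values passed.

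*Onecut1* (chr9:74861921-74889648) was read at 2.38, 38.4 and 20.4 CPM in WT control, 7.93, 23.9 and 12.3 in WT ethanol, 5.11, 15.4 and 36.6 in *Ahr* HKO control and 3.08, 12 and 6.56 in *Ahr* HKO ethanol livers. No compared pair of groups was apart and no comparison passed in these fits. The ethanol-diet genotype difference, -1.03 (edgeR adjusted *P* = 0.333), had adjusted *P* values of 0.0351 to 0.518 over 7 alternatives, the lowest with a replicate block. The widest of the pairwise differences was -1.40 ± 0.731 for ethanol in *Ahr* HKO (edgeR adjusted *P* = 0.182).

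Counted by comparison, the members that passed differed with genotype and diet. For ethanol in WT, 0 of 10 passed in edgeR, against 9.47% of all tested genes (4.84% higher and 4.63% lower). In DESeq2 2 passed there, *Bcl6* and *Cux2*, against 2335 of all 14038 tested genes. For ethanol in *Ahr* HKO, *Igfals* and *Ghr* rose and *Socs2* and *Cish* fell, 4 of 10 against 30.8% of all tested genes (14.9% higher and 15.9% lower). For genotype on the control diet, *Igfals*, *Ghr* and *Stat5b* were lower and 0 were higher, 3 of 10 against 29.6% (15.4% higher and 14.2% lower). On the ethanol diet *Bcl6* was higher and *Cish* and *Cux2* were lower in *Ahr* HKO, 3 of 10 against 1.1% (0.712% higher and 0.392% lower). The interaction passed for *Bcl6*, *Igfals* and *Ghr* upward and *Socs2* downward, 4 of 10 against 22.3% (11.2% higher and 11.1% lower). The shares of *Ahr* HKO diet and control genotype are thus near those of all genes. Ranges of CPM did not overlap for 1, 4, 3 and 6 of the 10 in the order of the pairwise comparisons given, against 32.9%, 49.8%, 47.3% and 27.9% of all tested genes. The median log2 FC of the 10 was -0.32, -0.14, -0.04, -0.06 and 0.11 in the 5 comparisons, against 0.027, -0.017, -0.001, -0.008 and -0.025 over all tested genes.

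**Figure D2:**
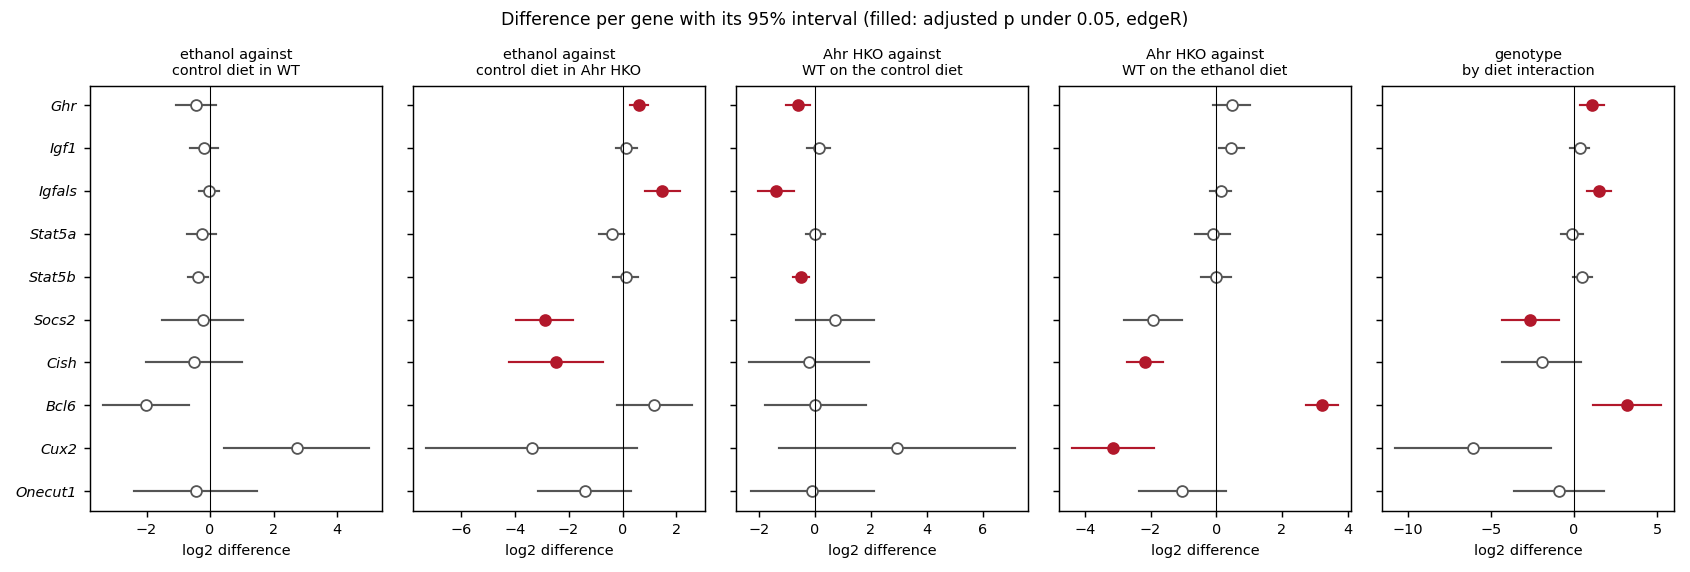
Log2 difference (horizontal axes, a scale for each panel) of each gene with its 95% interval in the 4 pairwise comparisons and the genotype-by-diet interaction, from the edgeR fits of 6 livers (12 for the interaction). Filled red points have an adjusted *P* value under 0.05. *Igfals* moves from -1.38 in the third panel to 1.48 in the second, and on the ethanol diet *Bcl6* (3.22) and *Cish* (-2.17) lie on opposite sides of 0.

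The pairwise comparisons share groups. WT control livers enter the WT diet and the control-diet genotype comparisons, and *Ahr* HKO control livers enter the *Ahr* HKO diet and the control-diet genotype comparisons, so a low value there, as for *Igfals*, appears in both. FPKM-based differences were shifted against the count-based ones: the median over all tested genes was 0.098 on log2(FPKM + 1) and 0.160 on log2(FPKM + 0.1) for ethanol in WT, -0.132 and -0.206 for genotype on the ethanol diet and -0.143 and -0.240 for the interaction. The share of calls that were higher was then 79.6%, 18.6% and 23.4% on log2(FPKM + 1), against 51.1%, 64.5% and 50.2% in edgeR.

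In both control-diet groups the livers differed most in *Socs2*, *Cish*, *Bcl6*, *Cux2* and *Onecut1* among the 10 genes. Among 11726 genes with a mean of at least 1 CPM, the SD of log2 CPM of *Socs2* lay at the 98.9 percentile in WT control and 97.9 in *Ahr* HKO control livers, and that of *Bcl6* at 99.4 in both. In WT ethanol livers *Cux2* (SD 0.813), *Onecut1* (0.8), *Socs2* (0.757) and *Ghr* (0.561) varied most, and *Bcl6* (0.406) and *Cish* (0.272) less. In *Ahr* HKO ethanol livers the SD of *Socs2* was 0.129 (42.1 percentile) and that of *Bcl6* was 0.0902 (26.6 percentile), close to or below the median SD of 0.151. There *Stat5b* had an SD of 0.399, above *Cish* at 0.373. *Onecut1* had an SD of 2.09 in WT control livers and 0.979 in *Ahr* HKO ethanol livers, at the 99.7 and 98.7 percentiles. *Stat5a* and *Stat5b* were among the steadier members in WT control livers, with SDs of 0.0974 and 0.184.

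Within groups the livers fell in the same order by *Onecut1* and by *Socs2*. This comparison was chosen after the values were seen. In WT control, WT ethanol and *Ahr* HKO ethanol livers both genes were lowest in liver 1 and highest in liver 2, and in *Ahr* HKO control livers both were lowest in liver 1 and highest in liver 3. *Cish* followed the order of *Socs2* in 3 of 4 groups. Over all tested genes 0.171% had the order of *Socs2* in 4 groups and 1.63% in 3 or more. *Bcl6* had the reverse order of *Socs2* in *Ahr* HKO control livers, and in both control-diet groups its highest value was in liver 1 and its lowest in liver 3.

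The genes whose log2 CPM were most like *Socs2* over the 12 livers were *Sec23a* (Pearson *r* 0.9), *Cbfa2t3* (0.9) and *Tgm1* (0.884), out of 11716 compared. *Tgm1*, which encodes a transglutaminase, was read at 6.07, 18.3 and 21.8 CPM in WT control and 5.61, 7.01 and 5.37 CPM in *Ahr* HKO ethanol livers. For *Bcl6* they were *Tmem131* (0.88), *Foxj2* (0.88) and *Prdm10* (0.865), for *Cux2* *Acadl* (0.834), *Cyp2c68* (0.821) and *Snx13* (0.819), and for *Igf1* *Rsrc2* (0.881), *Rbm5* (0.868) and *Prickle3* (0.853). The livers share groups and library scaling, so these values describe likeness only. *Cyp2c68*, a cytochrome P450 gene, was read at 126, 135 and 99.7 CPM in WT control and 242, 215 and 231 CPM in WT ethanol livers. It was at 321 CPM in *Ahr* HKO control liver 3, the liver with the highest *Cux2*. The gene was picked for its likeness to *Cux2* over these same livers, so that value is not separate evidence.

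Sex-biased genes of the mouse liver are read here beside *Cux2* and *Bcl6*. Of 19 male-biased genes tested, 15 fell with ethanol in WT and 0 rose, with a median log2 FC of -2.68, and 10 fell and 0 rose in *Ahr* HKO against WT on the control diet (median -1.20). *Hsd3b5*, a male-specific steroid enzyme gene, was read at 256, 241 and 252 CPM in WT control, 0, 0.143 and 0.605 in WT ethanol, 9.15, 27 and 18.4 in *Ahr* HKO control and 12.5, 91.2 and 88.2 in *Ahr* HKO ethanol livers. All WT ethanol livers were the lowest. *Cyp4a12b*, a male-biased cytochrome P450 gene, fell with ethanol in WT (log2 FC -6.28, edgeR adjusted *P* = 0.000292) and was higher in *Ahr* HKO than in WT on the ethanol diet (6.05, adjusted *P* = 0.0023). The interaction passed upward for 16 of the 19 male-biased genes and downward for 0 (edgeR). Ethanol in *Ahr* HKO raised 5 and lowered 1, and on the ethanol diet 5 were higher in *Ahr* HKO in edgeR. In DESeq2 13 passed on the ethanol diet, against 1521 of all 14038 tested genes. For ethanol in WT 15 of 19 stood against 9.47% of all tested genes, for the interaction 16 against 22.3%, for genotype 10 against 29.6% on the control and 5 against 1.1% on the ethanol diet, and for ethanol in *Ahr* HKO 6 against 30.8%, near the share of all genes.

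Of 23 female-biased genes listed, 18 had enough reads to be tested, and 10 rose and 0 fell with ethanol in WT (edgeR, median log2 FC 2.01). *Cyp2b9*, *Cyp2a4* and *Cyp2b13* had 0 reads in all WT control livers. They passed the filter on reads through other groups and could not fall in this comparison, which bears on these counts and this median. *Cyp2b9* was at 0 reads in all WT control livers, where 3 reads would be 0.0655 CPM or less, and at 793, 586 and 353 CPM in WT ethanol livers. In *Ahr* HKO it was read at 0, 0 and 33.7 CPM on the control diet and 265, 48.1 and 70.2 CPM on the ethanol diet, and liver 3 of the control group was again the one with *Cux2* at 5.91 CPM. *Cyp2a4*, at 0 in WT control livers, was read at 207, 471 and 354 CPM in WT ethanol livers. In *Ahr* HKO 3 rose and 1 fell with ethanol, and 3 were higher in *Ahr* HKO than in control-fed WT. Between ethanol-fed genotypes 0 passed in edgeR and 2 in DESeq2. There 1.1% of all 14038 tested genes passed in edgeR and 1521 in DESeq2. The interaction passed downward for 4 and upward for 0. Of all tested genes 9.47% passed for ethanol in WT, 30.8% for ethanol in *Ahr* HKO, 29.6% for genotype on the control diet and 22.3% for the interaction. The female-biased share lay well above that of all genes for ethanol in WT, in part through genes that could only rise there. It was near or below the share of all genes in the other 3. Several of these P450 genes have near-identical copies, so single levels are uncertain.

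**Figure D3:**
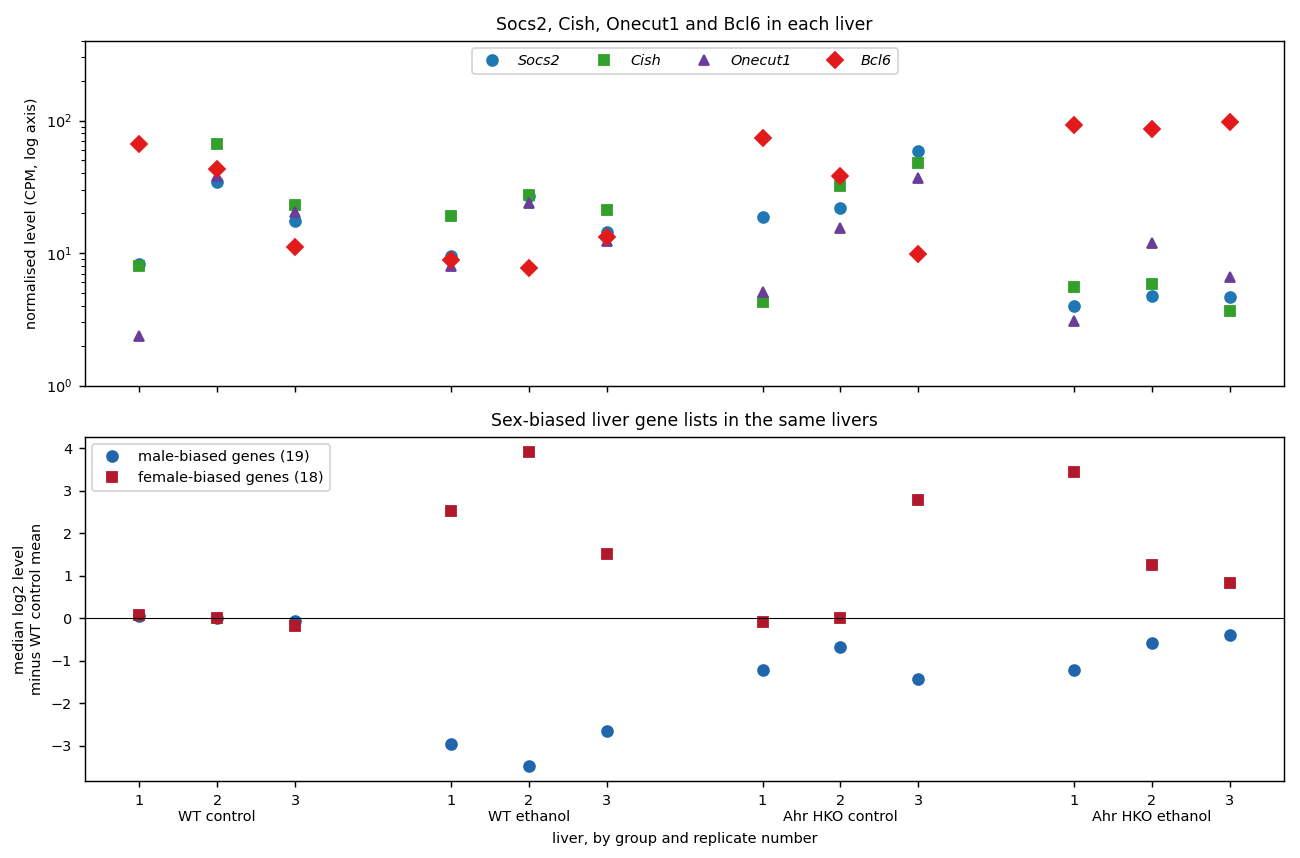
Top, levels of *Socs2*, *Cish*, *Onecut1* and *Bcl6* in CPM (log axis) in each of the 12 livers. Bottom, median over 19 male-biased (circles) and 18 female-biased (squares) genes of the log2 level minus the WT control mean. WT ethanol livers have male-biased medians of -3.47 to -2.66 and *Bcl6* at 7.7 to 13.2 CPM. *Bcl6* and this median do not go together in every liver. WT control liver 3 has *Bcl6* at 11.1 CPM with a male-biased median of -0.06, and *Ahr* HKO control liver 1 has 74.1 CPM with -1.22. *Ahr* HKO control liver 3 has a female-biased median of 2.77 against -0.08 and 0.00 in livers 1 and 2.

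Read liver by liver, the median of the male-biased genes against the WT control mean was -2.96, -3.47 and -2.66 in WT ethanol, -1.22, -0.67 and -1.42 in *Ahr* HKO control and -1.22, -0.59 and -0.39 in *Ahr* HKO ethanol livers. WT ethanol livers were the lowest by this measure and do not overlap the others. The female-biased median was 2.51, 3.90 and 1.52 in WT ethanol, -0.08, 0.00 and 2.77 in *Ahr* HKO control and 3.43, 1.25 and 0.83 in *Ahr* HKO ethanol livers. *Ahr* HKO ethanol liver 1 combined a female-biased median of 3.43 with *Cux2* at 0.17 CPM and *Bcl6* at 92.5 CPM. *Ahr* HKO control liver 3 combined the highest *Cux2* of the study with *Bcl6* at 9.9 CPM, and *Prlr*, a female-biased gene for the related prolactin receptor, was at 159 CPM there and at 53.4 and 51.6 CPM in livers 1 and 2. *Prlr* was also high, at 149.7 CPM, in *Ahr* HKO ethanol liver 1, where *Cux2* was low and *Bcl6* high.

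The other receptor and signalling genes had a median log2 FC of 0.03 for ethanol in WT, -0.33 for ethanol in *Ahr* HKO and 0.24 for genotype on the control diet. Of 12 tested, *Prlr* rose with ethanol in WT (log2 FC 0.82, edgeR adjusted *P* = 0.0344) and *Lifr*, the receptor gene for leukemia inhibitory factor, fell (-1.31, adjusted *P* = 0.0331). These 2 of 12 stand against 9.47% of all tested genes. The *Prlr* call passed only without WT control liver 1 among fits without 1 liver, and the *Lifr* call was lost without WT control liver 1 or 2 or WT ethanol liver 3. In *Ahr* HKO 2 rose and 5 fell with ethanol (edgeR), against 14.9% and 15.9% of all tested genes. *Egfr*, the epidermal growth factor receptor gene whose hepatic level depends on growth hormone, was read at 947, 1238 and 1099 CPM in *Ahr* HKO control and 275, 531 and 613 CPM in *Ahr* HKO ethanol livers. It fell with ethanol there (log2 FC -1.21, edgeR adjusted *P* = 0.0202), as did the adaptor gene *Grb2* (-0.62, adjusted *P* = 0.0112), and the insulin receptor substrate gene *Irs1* rose (1.19, adjusted *P* = 0.0322). The *Egfr* call was lost without control liver 2, and the *Irs1* call without control liver 2 or any ethanol liver. On the control diet 4 of 12 were higher in *Ahr* HKO and 0 lower, near the 29.6% of all tested genes, with *Egfr* at 1.21 (edgeR adjusted *P* = 0.00652) and the transducer *Stat3* at 0.89 (adjusted *P* = 0.00658). In ethanol-fed livers 0 of 12 passed in edgeR between genotypes, and 1 in DESeq2. There 1.1% of all 14038 tested genes passed in edgeR and 1521 in DESeq2. The interaction passed upward for 2, *Lifr* (1.29) and *Sh2b1* (0.42), and downward for 2, *Grb2* (-0.73) and *Shc1* (-0.45), 4 of 12 against 22.3% of all tested genes. The calls held in 7, 8, 12 and 9 of 12 fits without 1 liver.

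Among 15 other inhibitors, *Ptpn1*, which encodes the phosphatase PTP1B that acts on JAK2, was highest in *Ahr* HKO control livers. Its level was 26.3, 28.7 and 29.6 CPM in WT control, 27.9, 35.6 and 26.3 in WT ethanol, 127, 84.6 and 113 in *Ahr* HKO control and 24.7, 26.5 and 28 in *Ahr* HKO ethanol livers. *Ptpn1* was higher in *Ahr* HKO on the control diet (log2 FC 1.95, edgeR adjusted *P* = 0.000896) and fell with ethanol in *Ahr* HKO (-2.04, adjusted *P* = 0.00134), the opposite pattern to *Igfals*. *Socs3*, an inhibitor induced by cytokines, was higher on the control diet (1.56, edgeR adjusted *P* = 0.0395) and fell with ethanol in *Ahr* HKO (-1.85, adjusted *P* = 0.0172), and the first of these calls was lost without WT control liver 1 or 3 or *Ahr* HKO control liver 2 or 3, the second without ethanol liver 3. Without 1 liver the first ranged from 1.25 to 2.19. In all, 5 of the 15 were higher and 1 lower in *Ahr* HKO on the control diet, and 0 rose and 3 fell with ethanol in *Ahr* HKO (edgeR), with medians of 0.26 and -0.23. These shares stand against 29.6% and 30.8% of all tested genes, 1 somewhat above and 1 below. In WT ethanol raised *Socs5* (0.64, edgeR adjusted *P* = 0.0327, lost without any 1 liver) and lowered *Pias3*, a gene for an inhibitor of STAT3 (-1.05, adjusted *P* = 0.00917). No other inhibitor of the 15 passed there, and 9.47% of all tested genes did. *Fgf21*, a liver hormone gene that can lower growth hormone signalling, was read at 0.699, 3.04 and 1.14 CPM in WT control and 12, 4.44 and 57.4 CPM in WT ethanol livers, without overlap, and did not pass (3.91, edgeR adjusted *P* = 0.0563). Its interaction passed (-4.55, edgeR adjusted *P* = 0.0203, -5.38 to -2.98 without 1 liver), and 1 of 15 inhibitors passed the interaction upward and 4 downward, against 22.3% of all tested genes. Between ethanol-fed genotypes 0 of the inhibitors passed in edgeR and 2 in DESeq2. Of all 14038 tested genes, 1.1% passed there in edgeR and 1521 in DESeq2.

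IGF-binding genes were tested for 13 of 16 listed, with a median log2 FC of 0.29 for ethanol in WT, 0.06 for ethanol in *Ahr* HKO and -0.25 for genotype on the control diet. *Igfbp1*, which encodes a short-lived IGF carrier induced by fasting, was read at 25, 11.2 and 12.8 CPM in WT control, 344, 80.2 and 185 in WT ethanol, 80.5, 21.7 and 149 in *Ahr* HKO control and 126, 78 and 66 in *Ahr* HKO ethanol livers. It was 12.5-fold higher with ethanol in WT (log2 FC 3.64, edgeR adjusted *P* = 0.0136), a call lost without WT control liver 2 or 3 (3.01 to 4.08 without 1 liver), and higher in *Ahr* HKO on the control diet (2.37, adjusted *P* = 0.0323), which passed only without *Ahr* HKO control liver 2 among fits without 1 liver. *Igfbp2*, an abundant hepatic carrier, was lower in *Ahr* HKO on the control diet (-0.95, edgeR adjusted *P* = 0.00667) and rose with ethanol in *Ahr* HKO (0.89, adjusted *P* = 0.0146), as *Igfals* did. *Igfbp3*, whose protein joins IGF1 and the acid-labile subunit in the circulating complex, was read at 8.75 to 21.1 CPM over the 12 livers and passed in no comparison. *Igfbp5* followed *Igfbp2* in both of these comparisons (-1.59, edgeR adjusted *P* = 0.0372, and 1.48, adjusted *P* = 0.00842), the first lost without WT control liver 3 or any *Ahr* HKO control liver. The interaction passed upward for *Igfbp2* (1.08) and downward for *Igfbp1* (-3.53). Of the 13, 1 passed for ethanol in WT, 2 for ethanol in *Ahr* HKO, 3 for genotype on the control diet and 2 for the interaction, none of these shares above that of all tested genes (9.47%, 30.8%, 29.6% and 22.3%). Among ethanol-fed livers 0 of 13 passed in edgeR between genotypes, and 2 in DESeq2. Of all 14038 tested genes, 1.1% passed there in edgeR and 1521 in DESeq2.

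Of 18 hepatocyte transcription factors and nuclear receptors, 6 were higher and 3 lower in *Ahr* HKO on the control diet (edgeR, median 0.14), against 29.6% of all tested genes. *Hnf4a*, a master factor of hepatocyte identity, was read at 626, 553 and 529 CPM in WT control and 1096, 1003 and 1236 CPM in *Ahr* HKO control livers (log2 FC 0.97, edgeR adjusted *P* = 0.00331). The xenobiotic receptor gene *Nr1i3* was lower (-0.63, edgeR adjusted *P* = 0.0473), and that call passed only without *Ahr* HKO control liver 3 among fits without 1 liver. With ethanol 2 rose in WT, the co-regulator gene *Trim24* (1.40, edgeR adjusted *P* = 0.00322) and *Nr1i3* (0.74, adjusted *P* = 0.00802), and 0 fell. These 2 of 18 are near the 9.47% of all tested genes. In *Ahr* HKO 3 rose, *Nr0b2* (1.33), *Nr1i3* (1.03) and *Trim24* (0.80), and 2 fell, *Prox1* (-1.35) and *Foxa3* (-0.71), 5 of 18 against 30.8% of all tested genes. Of these, *Nr0b2* was lost without control liver 3 or ethanol liver 2 or 3, *Trim24* without control liver 1 or 2 or ethanol liver 1 or 3 and *Foxa3* without control liver 1 or 3 or ethanol liver 1 or 3. Between genotypes on the ethanol diet 0 passed in edgeR and 5 in DESeq2. Of all 14038 tested genes, 1.1% passed there in edgeR and 1521 in DESeq2. For the interaction 0 of 18 passed in edgeR, against 22.3% of all tested genes. By DESeq2 it was 3 of 18, and DESeq2 passed 3977 of all tested genes.

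**Figure D4:**
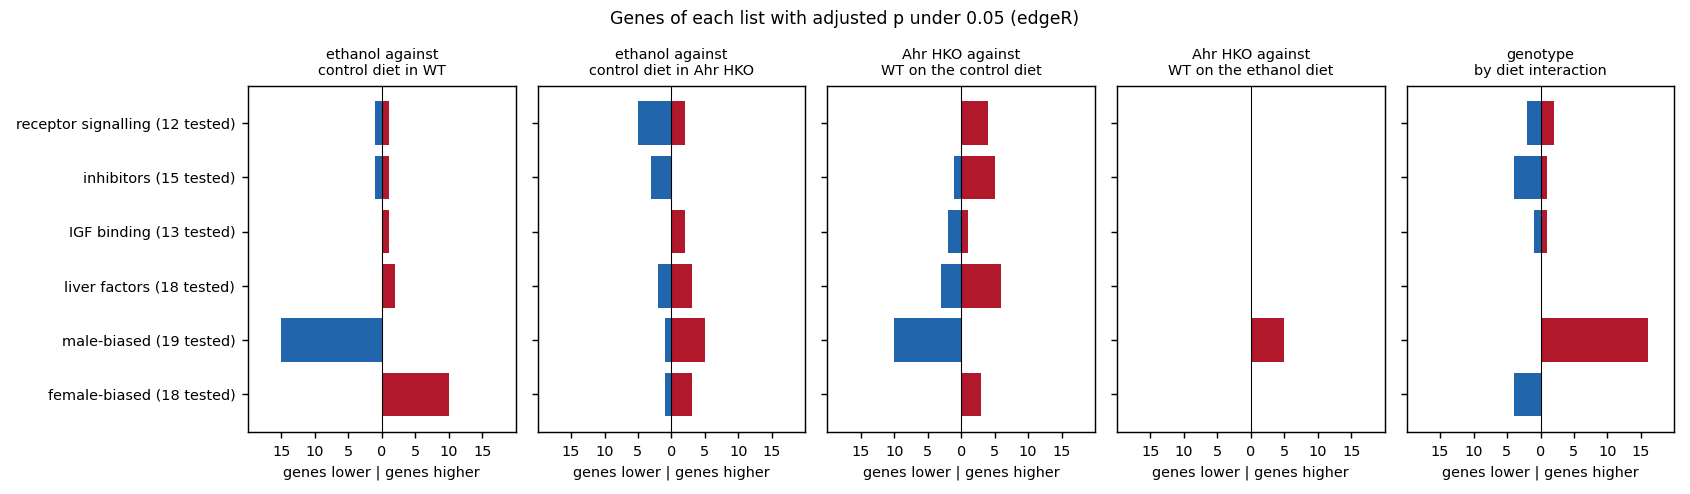
Number of genes per list (rows, genes tested in brackets) that passed as higher (red, right) or lower (blue, left) in each comparison, by edgeR at an adjusted *P* value under 0.05. The male-biased list has 15 genes lower with ethanol in WT and 16 with a positive interaction, and it has 5 genes that passed on the ethanol diet, where the other lists plotted, which leave out the 10 genes above, have 0.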

How the data were processed

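RNA-seq counts, FPKM and TPM per gene, as deposited by the authors, were read for 24532 genes in 12 livers. The deposited counts are whole numbers and carry no normalization. The authors' FPKM are scaled to gene length and library size, without the logarithm and quantile steps described in the study's methods, and the authors' TPM entered no result. Libraries were poly-A selected and stranded, and RNA with a RIN above 7 was used. The submitters' processing notes list FastQC 0.11.7, Trimmomatic 0.38, HISAT2 2.1.0, Bowtie2 2.3.4.1, StringTie 1.3.4d and mm10. Their roles and the strand setting of the counting are not given in the sources used here. Non-coding genes annotated by RefSeq overlap *Ghr*, *Igf1*, *Igfals*, *Socs2*, *Bcl6*, *Cux2* and *Onecut1* and are not rows of the table, so single levels may include their reads.

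Groups came from the labels. filterByExpr, given the 4 groups, kept 14038 genes, which were tested with edgeR 4.0.16 in R 4.3.3 (TMM, quasi-likelihood, Benjamini-Hochberg over all tested genes), with 6 libraries per pair of groups and 12 for the interaction. Intervals are 95% intervals of the coefficients. The fits were run on simulated counts with known changes. These had the same spread setting for every gene, and only genes with ample reads were changed. They do not show how the fits perform for genes as variable or as low as *Cux2*. Between livers of a group the chi-square statistic per gene was 68 to 310, so the spread between livers, and not read sampling, set the precision. The labels number the livers of a group 1, 2 and 3, and the study's methods describe separate mice. Alternatives were DESeq2 1.42.0, upper-quartile scaling, no filter on low counts, a single fit of all libraries, a replicate block, limma 3.58.1 on log2(FPKM + 1) and log2(FPKM + 0.1), a fold change above 1.5 and leaving out each liver.

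The 10 members, the other lists, the tests and the alternatives were chosen with earlier results of these data known. Besides the members and *Ahr*, the genes named were up to 4 per list and comparison, the 2 largest rises and 2 largest falls that passed, then *Jak2*, *Prlr*, *Socs3*, *Fgf21*, *Igfbp1*, *Igfbp2* and *Igfbp3* in any case, and the 3 genes most correlated with *Igf1*, *Socs2*, *Bcl6* and *Cux2*. Gene positions are those of RefSeq on GRCm38.p6, matched by Entrez identifier, and promoter sequences are from RefSeq on the same assembly. Figures were drawn with matplotlib 3.10.9.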

Additional observations from a re-analysis of the deposited data

Results flagged for a closer look

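The response to the diet differed between WT and *Ahr* HKO livers for 4 members and for *Ahr* by the interaction test of edgeR over 12 livers. The difference in log2 FC was 1.07 for *Ghr* (adjusted *P* = 0.0402), 1.52 for *Igfals* (adjusted *P* = 0.00896), -2.64 for *Socs2* (adjusted *P* = 0.0335), 3.20 for *Bcl6* (adjusted *P* = 0.0307) and -1.23 for *Ahr* (adjusted *P* = 0.0176). *Igfals* and *Ahr* passed in 12 of 12 fits without 1 liver, and *Ghr*, *Socs2* and *Bcl6* each in 5 of 12. Such a test was run for every tested gene, and 22.3% of them passed.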

How the results depend on the processing

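Of the 10 members, 0 passed for ethanol in WT, against 2 in DESeq2, 1 on log2(FPKM + 0.1) and 0 to 1 without 1 liver. For ethanol in *Ahr* HKO 4 passed, against 2 with the replicate block and 2 to 4 without 1 liver. For genotype 3 passed on each diet, against 1 in a single fit of 12 libraries and 1 to 3 without 1 liver. For the interaction 4 passed, against 2 on log2(FPKM + 1) and log2(FPKM + 0.1) and 1 to 4 without 1 liver. The other alternatives stayed within 1.5 times these counts. Over all tested genes 1329 passed for ethanol in WT, against 2335 in DESeq2 and 517 with the block, and 155 for genotype on the ethanol diet, against 1521 in DESeq2, 575 in a single fit, 245 with the block and 382 and 477 on FPKM. The deviations of same-numbered livers from their group means had correlations of -0.0884 to 0.178. The highest, 0.178 and 0.133, were between the ethanol-fed groups for livers 1 and 2. Such correlations cannot settle whether the numbers pair livers, and the main fits treated the livers as unpaired. With the block *Ghr* and *Cish* were lost for ethanol in *Ahr* HKO (adjusted *P* = 0.0544 and 0.145), *Ghr* for genotype on the control diet (0.0819) and *Cux2* on the ethanol diet (0.0729), while *Socs2* (0.0448) and *Onecut1* (0.0351) were gained there, all in edgeR. Members that had not passed changed sign as follows. For ethanol in WT, *Igfals* was 0.13 and 0.13, *Cish* 0.07 and 0.13 and *Onecut1* 0.12 and 0.26 on log2(FPKM + 1) and log2(FPKM + 0.1), *Socs2* 0.00 on the latter and *Onecut1* 0.02 with the block. For ethanol in *Ahr* HKO *Stat5b* was -0.00 on both FPKM scales. For genotype on the control diet *Stat5a* was -0.06 and *Bcl6* -0.03 under upper-quartile scaling, and -0.01 and -0.06 with the block, and *Onecut1* was 0.20 with the block and 0.11 and 0.21 on FPKM. On the ethanol diet *Igfals* was -0.09 on both FPKM scales. Without 1 liver the values ranged, for ethanol in WT, from -0.14 to 0.05 (*Igfals*), -0.75 to 0.41 (*Socs2*), -0.96 to 0.57 (*Cish*) and -1.01 to 0.40 (*Onecut1*), for ethanol in *Ahr* HKO from -0.10 to 0.30 (*Stat5b*) and -3.97 to 0.85 (*Cux2*), for genotype on the control diet from -0.02 to 0.22 (*Igf1*), -0.11 to 0.15 (*Stat5a*), -0.84 to 0.86 (*Cish*), -0.73 to 0.58 (*Bcl6*), -1.26 to 4.28 (*Cux2*) and -1.0 to 0.74 (*Onecut1*), on the ethanol diet from -0.25 to 0.15 (*Stat5a*) and -0.22 to 0.16 (*Stat5b*), and for the interaction from -0.26 to 0.15 (*Stat5a*). The cause of these changes was not tested. With 3 livers a group, a missed threshold does not show that levels were equal.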
